A study of Mus musculus with 4 samples.

Results

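The C1q Trem2 tumour macrophages of castrated mouse prostate tumours were 976 of the 25509 cells kept from 33061 cell barcodes in 4 libraries. A barcode was kept with at least 1000 unique molecular identifiers (UMIs, counted transcripts), at least 300 genes and at most 20% mitochondrially encoded UMIs. A kept cell was a member if it held at least 10 UMIs of C1qa, C1qb and C1qc together, at most 1 UMI of F13a1, Clec10a, Mgl2 and Cd209a together, under 5 UMIs of the cycling genes Top2a, Mki67, Birc5, Ube2c and Cenpf, and at most 4 UMIs of Krt8 and Krt18. The rule was chosen from measured values, so the levels of these genes describe the members and test nothing. Of the 1506 kept cells with at least 10 C1q UMIs, 322 were over the F13a1 limit alone and are the population nearest to the members. The others were 79 cycling cells and 129 cells over the keratin limit.

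The study asked what the chromatin remodeller gene Chd1 does in Spop-mutant prostate tumours. Both groups carry PB-Cre, a Cre recombinase under a probasin promoter, which is known to drive expression in prostate epithelium, together with SpopF133V (a mutant ubiquitin-ligase adaptor) and the mTmG reporter. The PCSp mice carry Chd1L/L (floxed Chd1) as well, and the PSp mice do not. All were castrated at 9 months of age, whole tumours were collected 1 month later, and each of the 2 PSp and 2 PCSp mice gave 1 library. Whether the Cre had acted in any of the macrophages was not measured.

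C1q is the recognition molecule of the classical complement pathway, and tissue macrophages are its main source. TREM2 is a lipid-sensing receptor that signals through TYROBP and marks macrophages that take up lipid and debris. CX3CR1 is the fractalkine receptor, and MS4A7 is a membrane protein of mature macrophages. In tumours, macrophages of this kind are known for lipid handling, clearance of dead cells and antigen presentation, and they can arise from recruited monocytes or from cells already resident in the tissue.

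The PSp mice gave 171 and 212 members and the PCSp mice 302 and 291. Their UMIs summed to 1530683 and 1807538 in PSp and to 2279358 and 1852288 in PCSp, and all levels below are counts per 1000000 UMIs of such a sum (CPM). Median UMIs per member were 5267, 6232, 4981.5 and 4950, in the order PSp mouse 1, PSp mouse 2, PCSp mouse 1 and PCSp mouse 2, which is kept throughout. No barcode was shared by members of different libraries, against 11 to 27 barcodes shared by any pair of whole libraries. Free RNA in droplet data gives UMIs in cells that do not express a gene. Among 9255 cells with at least 10 keratin UMIs, 20.4% held a C1q UMI, at a median of 19588 UMIs per cell against 5083.5 in the members, and 1.10% reached 10. After every cell was thinned to 1000 UMIs, a C1q UMI was seen in 2.30% of those keratin cells and in 99.4% of the members.

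The markers named for these cells were present in every mouse. Trem2 stood at 459, 640, 774 and 811 CPM. Ms4a7 stood at 1479, 1391, 1293 and 1078 CPM, and Cx3cr1 at 517, 524, 506 and 375 CPM. Trem2 was thus higher in both PCSp mice, Ms4a7 was higher in both PSp mice, and Cx3cr1 was a little higher in both PSp mice too, PCSp mouse 1 lying close under them. The groups did not overlap for 37.3% of all genes tested, so this says little. None of these markers passed edgeR's test between the genotypes (adjusted p = 0.539, 0.683 and 0.801). Without sub-cluster 6, described below, Trem2 stood at 425, 553, 539 and 568 CPM and the groups overlapped. In cells thinned to 1000 UMIs, Ms4a7 was seen in 60.5% to 71.3% of the members of a mouse, against 27.2% to 34.0% of the C1q-high cells over the F13a1 limit and at most 0.153% of keratin-high cells. Trem2 was seen in 27.5% to 33.5% of members and in 18.9% to 26.5% of the cells over the F13a1 limit, so it was detected in both C1q-high populations. Its level was lower in the cells over the F13a1 limit, at 262, 266, 213 and 281 CPM. Without thinning, a Trem2 UMI was found in 55.6% to 65.2% of members.

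**Figure D1:**
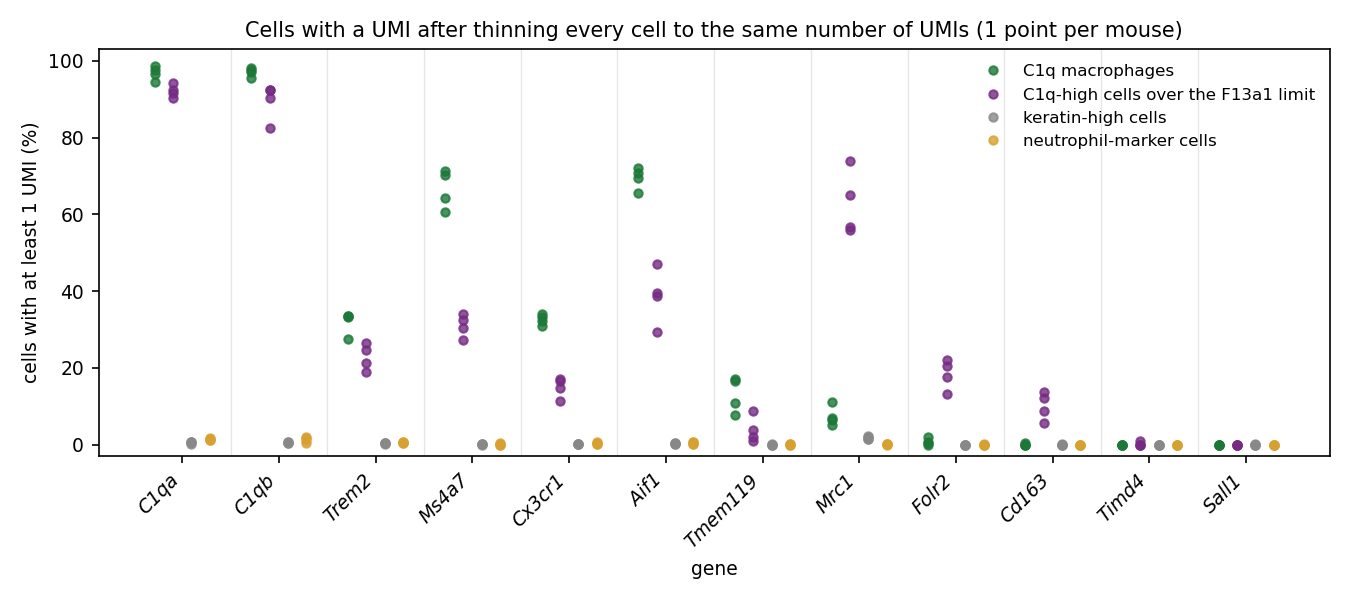
Share of cells with at least 1 UMI of a gene after each cell was thinned to 1000 UMIs, in percent, for 4 classes of cells with 1 point per mouse. Ms4a7 and Cx3cr1 lie higher in the C1q macrophages than in the C1q-high cells over the F13a1 limit, Mrc1, Folr2 and Cd163 lie lower, and Timd4 and Sall1 are near 0 in both.

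Timd4, Cd163 and Lyve1, genes of resident and perivascular macrophages, were at or near 0. Other genes of this kind were not: of 8 on the tissue-resident and perivascular list with enough reads, 5 were higher in members than in all other kept cells. Timd4, a marker of long-lived resident macrophages, was seen in 0 of 976 members, which allows a share of members with a UMI of up to 0.307%. Cd163 and Lyve1, which mark perivascular macrophages, were seen in at most 0.687% and 0.585% of unthinned members of a mouse. In the cells over the F13a1 limit, which the rule set apart, they were seen in 14.7% to 24.3% and 22.3% to 26.5%. The low shares in members thus depend on the rule. Genes known from microglia were mixed. Tmem119 was present in 40.4% to 50.9% of unthinned members, Fcrls in 39.4% to 56.1%, Olfml3 in 43.6% to 57.5% and P2ry12 in 17.2% to 21.1%, while the transcription factor Sall1 was seen in at most 0.472%.

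Members just inside the C1q limit differed from the bulk. The 34 members with 10 to 12 C1q UMIs held 218 CPM of Trem2, 356 CPM of Ms4a7 and 900 CPM of the collagen gene Col1a1. The 942 members above them held 695, 1319 and 4.91 CPM of these genes. Col1a1 was uneven between mice. Sub-cluster 8, described below, held 92.5% of the members' Col1a1 UMIs, 128 of these 148 from PCSp mouse 2. The 52 cells just outside, with 7 to 9 C1q UMIs, held 137 CPM of Trem2 and 257 CPM of Ms4a7, with 828 CPM of the neutrophil gene S100a8. At the other limit, the 55 members with 1 UMI of the F13a1 set had 316 CPM of Trem2, and the 60 cells just outside with 2 to 3 such UMIs had 499 CPM.

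Against the C1q-high cells over the F13a1 limit, the summed members held more transcripts of lipid handling, much of them from few cells. This is a description without a test, since the rule separated the populations. Spp1, the secreted matrix protein osteopontin, averaged 1904 CPM in members and 131 CPM in the other population. Gpnmb, a lysosome-associated glycoprotein, averaged 645 and 46.7 CPM, and Fabp5, a fatty acid carrier, 1419 and 208 CPM. Cathepsin D (Ctsd), a lysosomal protease, averaged 3553 and 1032 CPM. Of 18 genes of the lipid-associated macrophage list with enough reads, 16 were higher in members, with a median log2 ratio of 1.14 against -0.04 over all 5685 genes compared. Sub-cluster 6, 33 cells described below of which 54.5% had high doublet scores, held 84.1% of the members' Spp1 UMIs, 94.3% of those of Gpnmb and 84.9% of those of Fabp5. Gpnmb was seen in 2.83% to 6.19% of thinned members. Of 18 lysosomal genes, 14 were higher in members, with a median of 0.29. Not all of these differences were even across mice: for Mfge8, a bridging protein that ties dying cells to phagocytes, the log2 ratio ran from -0.00 to 4.02.

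Genes lower in the members included secreted and scavenger genes of perivascular and alternatively activated macrophages. Retnla averaged 61.7 CPM in members and 3341 CPM in the cells over the F13a1 limit, and the chemokine Ccl8 115 and 2828 CPM. The mannose receptor Mrc1 averaged 90.2 and 1466 CPM, the folate receptor Folr2 6.91 and 231 CPM, and the monocyte chemokine receptor Ccr2 40.2 and 330 CPM. Of 14 genes of the tissue-resident and perivascular list, 1 was higher in members, with a median log2 ratio of -2.92. None of 18 dissociation stress genes was higher in members, with a median of -0.79, and none of 7 MHC class II genes, with a median of -0.56.

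Against all other kept cells, the largest ratios outside the genes of the rule belonged to Ms4a7 (1310 against 11.7 CPM), cathepsin S (Ctss, 4996 against 109 CPM), Aif1 (1148 against 18.1 CPM) and lysozyme (Lyz2, 7332 against 177 CPM). Apoe, the lipid carrier protein, averaged 38154 CPM in members and 1229 CPM elsewhere. The MHC class II genes H2-Aa, H2-Ab1 and H2-Eb1 and the invariant chain Cd74 followed, with log2 ratios of 4.73 to 4.85. Fcrls, known from microglia, was among the 20 largest ratios too.

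The members were not uniform. Leiden clustering at a resolution of 0.5 split them into 9 sub-clusters, given here by number and leading genes, with no test of one against the rest. Sub-cluster 1 (147 cells) was led by interferon-stimulated genes, with Isg15 at 1005 CPM against 254 CPM in the other members and Cxcl10 at 633 against 156 CPM. Sub-cluster 3 (122 cells) was led by the growth factor Igf1, by Fcrls and by the purinergic receptor Gpr34, and had Apoe at 67498 against 28424 CPM. Sub-cluster 4 (214 cells) was led by Mrc1, the chemokine Ccl4 at 4253 CPM and the cytokine Il1b at 4357 CPM. Sub-cluster 2, the largest with 352 cells, had a median of 1585.5 UMIs and was led by the epithelial genes Pigr, Cbr2 and Reg3g, while Ms4a7 stood at 1733 CPM in it. Its leading genes are thus not macrophage genes, though the first of them stood at only 153, 114 and 325 CPM. C1qa and C1qb, genes of the rule, were at 8505 and 8292 CPM in it, the highest of the 9. Its Ms4a7 level was no lower than the 1326 to 1732 CPM of sub-clusters 1, 3 and 4.

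The 5 smaller sub-clusters held the rest. Sub-cluster 5 (32 cells) was led by the histone gene Hist1h1b and by Pclaf, genes of DNA replication, although each of its cells was under the cycling limit. Sub-cluster 6 (33 cells) was led by Gpnmb at 5351 CPM and Mfge8 at 2578 CPM, followed by arginase (Arg1), Fabp5, the lysosomal pump subunit Atp6v0d2, cathepsin L (Ctsl), Spp1 and the peptide gene Npy. It had the highest Trem2 of the 9, 1854 CPM, beside Cx3cr1 at 56.2 CPM, Ms4a7 at 353 CPM and H2-Aa at 110 CPM, far under the 2547 to 9822 CPM of H2-Aa in sub-clusters 1 to 4. Sub-cluster 7 (31 cells) was led by the neutrophil genes S100a9 and S100a8, sub-cluster 8 (20 cells) by the stromal genes Sparcl1, Dcn and Acta2. Sub-cluster 9 (25 cells) was led by Retnla, found in 12% of its cells, by the monocyte genes Ly6c2 and Plac8, and by Ccr2 at 897 CPM. Its Ly6c2 was uneven, at 70.4 CPM in PSp mouse 2, 54.8 CPM in PCSp mouse 1 and 2091 CPM in PCSp mouse 2. High doublet scores were found in 54.5%, 48.4% and 45.0% of the cells of sub-clusters 6, 7 and 8, and in 1.14% to 6.80% of those of sub-clusters 1 to 4.

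The small sub-clusters did not hold the same share of every mouse's members. Sub-cluster 6 had 4, 4, 10 and 15 cells, or 2.34%, 1.89%, 3.31% and 5.15% of the members of the mouse. Sub-cluster 9 had 0, 2, 8 and 15 cells, from 0% in PSp mouse 1 to 5.15% in PCSp mouse 2. Both were higher in each PCSp mouse than in each PSp mouse, as were sub-cluster 4 at 18.7%, 17.9%, 19.2% and 29.6% and sub-cluster 7. Sub-cluster 3 was lower in each PCSp mouse, at 12.3%, 17.5%, 9.60% and 12%. Sub-clusters 1 and 2 overlapped between the genotypes. These shares come from clustering on the same genes and were not tested.

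**Figure D2:**
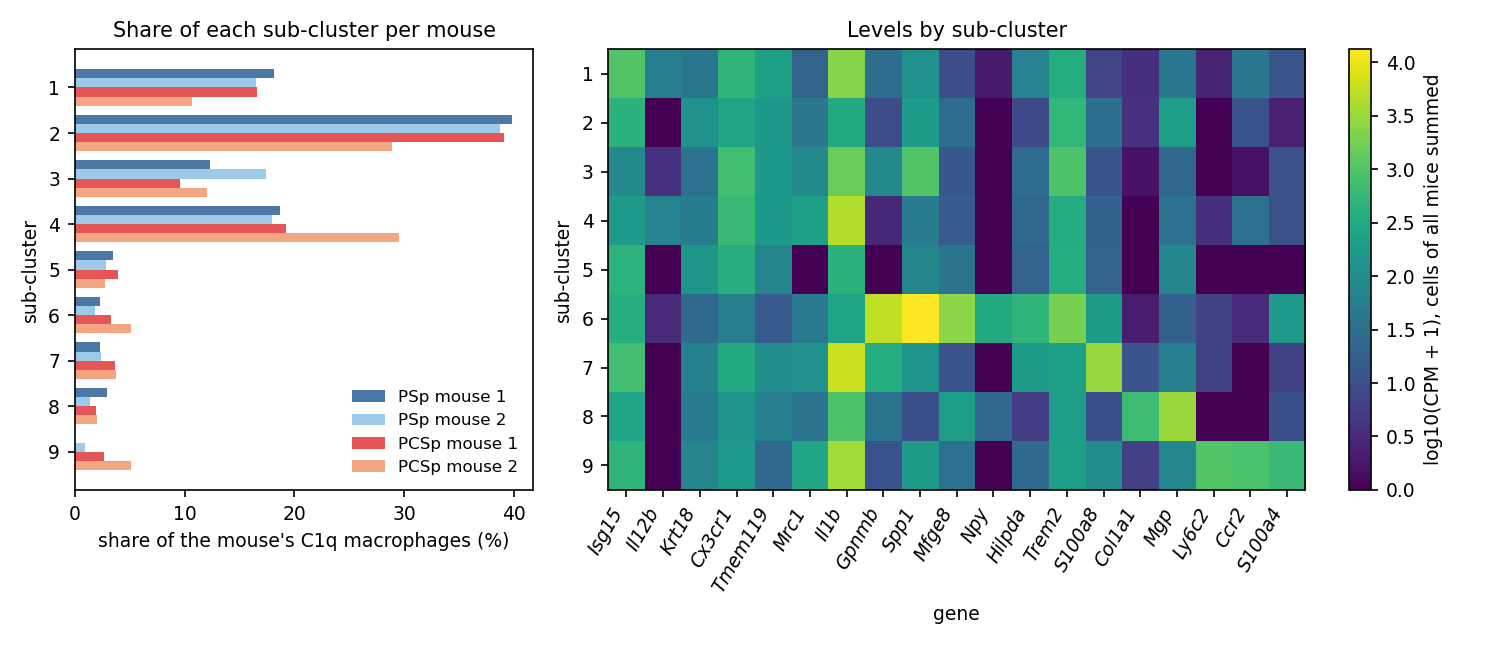
Left, share of each mouse's C1q macrophages in sub-clusters 1 to 9, in percent. Right, levels of chosen genes in each sub-cluster as log10(CPM + 1), cells of all mice summed: Gpnmb, Spp1, Mfge8, Npy and Hilpda are brightest in sub-cluster 6, Ly6c2, Ccr2 and S100a4 in sub-cluster 9, Col1a1 and Mgp in sub-cluster 8.

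The macrophages made up 3.50%, 3.72%, 4.10% and 3.85% of the kept cells, or 3.61% ± 0.156 in PSp and 3.97% ± 0.171 in PCSp (SD, n = 2 mice each). Both PCSp mice were above both PSp mice by 0.365 percentage points on average, at an exact two-sided permutation p of 0.333, the smallest that 2 against 2 mice can give. Counting error alone gives exact Clopper-Pearson 95% intervals of 3.0% to 4.05% for PSp mouse 1 and 3.66% to 4.57% for PCSp mouse 1. Among cells under the keratin limit the order was lost, with 6.94% ± 0.269 in PSp and 6.69% ± 0.808 in PCSp (n = 2, exact p = 1). Of the C1q-high cells, members made up 66.5%, 70.2%, 65.5% and 59.9%, and the mean was 5.67 points lower in PCSp (68.4% ± 2.59 against 62.7% ± 3.98, n = 2, exact p = 0.333). The C1q-high cells over the F13a1 limit stood at 0.841% ± 0.345 of kept cells in PSp and at 1.57% ± 0.248 in PCSp (n = 2, exact p = 0.333).

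Neither Chd1 nor Spop passed the test in the macrophages. Chd1 stood at 41.2 and 43.2 CPM in PSp and at 54.0 and 65.3 CPM in PCSp, a log2 fold change of 0.47 ± 0.17 (SE) with an edgeR adjusted p of 0.688. In keratin-high cells, the log2 fold change of Chd1 was -0.57 ± 0.10 (adjusted p = 0.313). Whether the Cre had acted in these cells was not measured. The difference between the classes, 1.06 ± 0.22, passed at an adjusted p of 0.0331, one of 48 among 15751 genes (0.305%) for which the macrophages and keratin-high cells differed. Spop was at a log2 fold change of -0.19 ± 0.14 in the macrophages (adjusted p = 0.878). The libraries read the 3' ends of transcripts and the labels do not give the floxed exons, so these values check no deletion.

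In the macrophages, 9 of 8712 genes tested, 0.103%, passed an adjusted p of 0.05 in edgeR's quasi-likelihood test between the genotypes. Of these, 7 rose in PCSp (0.0803%) and 2 fell (0.023%), and at an unadjusted p under 0.05 there were 307 genes higher (3.52%) and 257 lower (2.95%). The groups of 2 mice did not overlap for 37.3% of all genes tested, so non-overlap by itself says little here. The genes that rose were Mfge8, Mgp, Ccr2, Npy, Hilpda and the RNA genes Gm42031 and Gm26740. Cacna1a and Hspa1a fell. These p-values rest on the spread between 2 mice per group, with spread shared across genes by the model, and every one of the 9 was higher or lower in both mice of a group.

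**Figure D3:**
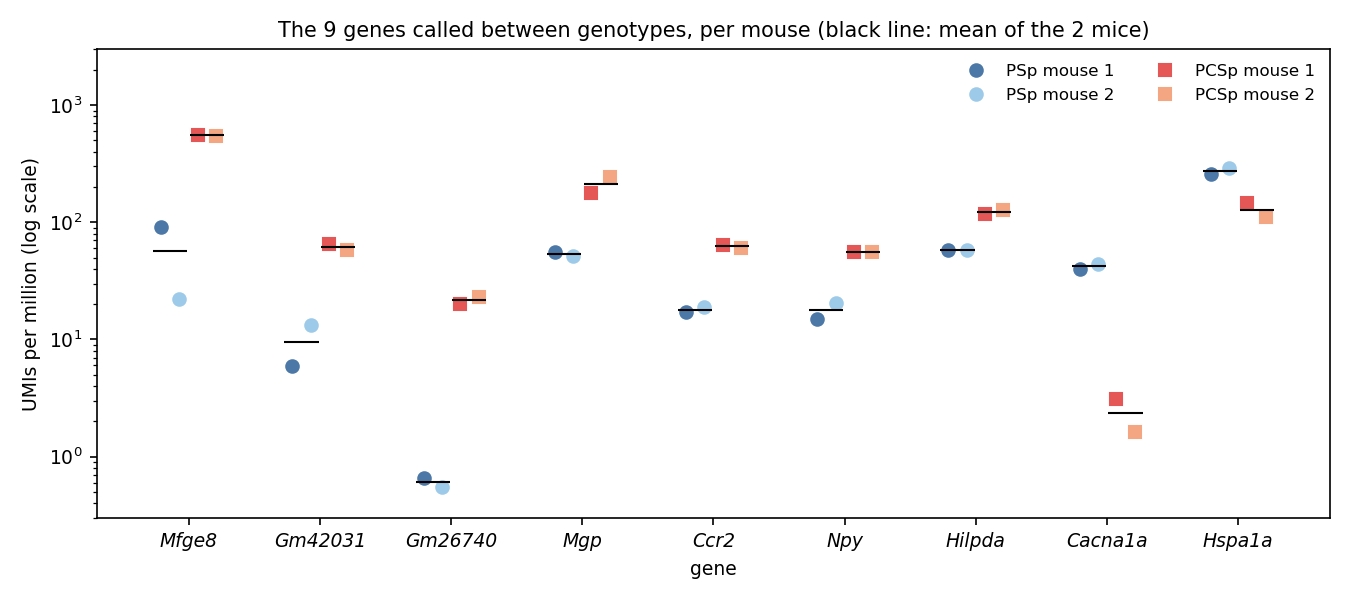
Levels of the 9 genes that passed between the genotypes, in CPM on a log axis, with 1 symbol per mouse and a line at the mean of each genotype. The groups do not overlap for any of the 9, with Mfge8 the most spread within PSp (90.8 and 22.1) and Cacna1a the furthest apart on the way down (39.9 and 44.3 against 3.07 and 1.62).

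Cacna1a, the gene of the P/Q-type calcium channel subunit (chromosome 8, bases 84388440 to 84640246, mm10), had the steepest fall. It stood at 39.9, 44.3, 3.07 and 1.62 CPM, from 61, 80, 7 and 3 UMIs. Both PCSp mice lay far under both PSp mice. The fitted log2 fold change was -4.12 ± 0.32 (edgeR adjusted p = 0.00585), and the summed counts were 17.5-fold lower in PCSp, with a counting interval of 9.21 to 37.2. The UMIs came from the large sub-clusters, with 24.5%, 34.4% and 29.1% of them in sub-clusters 1, 3 and 4. In sub-cluster 4 alone the levels were 89.8, 58.5, 2.19 and 2.25 CPM. An antisense gene, Gm16183, lies inside Cacna1a, so a few of the reads may be uncertain. Cacna1a lies near Gm42031, another of the 9 genes, on chromosome 8. The labels give no strain background, so a background difference between the colonies and the Chd1 genotype cannot be told apart for these genes.

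The C1q-high cells over the F13a1 limit showed the same fall of Cacna1a, with 40.9 and 55.4 CPM in PSp and 0 and 1.28 CPM in PCSp (adjusted p = 0.00747). Those values rest on 39 UMIs against 1, a 64.5-fold ratio with a counting interval of 10.9 to 2610. Keratin-high cells held little Cacna1a in either genotype, 5.87 and 5.65 CPM in PSp and 8.41 and 7.15 CPM in PCSp, and ran the other way at 0.41 ± 0.13. The genotype effect in the macrophages differed from that in keratin-high cells by -4.54 ± 0.44 on the log2 scale (adjusted p = 6.26e-06), where 0.0889% of genes differed downward. It was not shown to differ from that in the cells over the F13a1 limit (1.76 ± 1.20, adjusted p = 0.912).

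Hspa1a, the inducible heat shock chaperone HSP70 (chromosome 17), was the other gene that fell. It stood at 260 and 288 CPM in PSp and at 147 and 110 CPM in PCSp, with no overlap, and its log2 fold change was -1.12 ± 0.15 (adjusted p = 0.0496). Its near-identical neighbour Hspa1b was at 116, 198, 80.7 and 61.5 CPM with a log2 fold change of -1.17 ± 0.25 (adjusted p = 0.237). Reads of these 2 copies can be split between them by the counting, so their separate values are uncertain. Hspa1a transcripts sat in sub-clusters 1, 3 and 4, and in sub-cluster 4 they stood at 576, 685, 235 and 178 CPM. The genotypes overlapped in sub-cluster 1 (382, 177, 194 and 137 CPM) and in sub-cluster 3 (94.1, 350.4, 97.9 and 164 CPM). In all other kept cells Hspa1a stood at 185, 152, 150 and 126 CPM, and the genotype effects differed by -0.78 ± 0.18 (adjusted p = 0.0148), one of 111 such differences among 16874 genes (0.658%). The call depended on the cells included. Hspa1a did not pass with a C1q limit of 5 UMIs (-1.10, edgeR adjusted p = 0.0679). Without cells holding RNA of other classes, which left few cells, it was at -0.057 (edgeR adjusted p = 0.980). With PSp mouse 1 left out Hspa1a did not pass (-1.19, adjusted p = 0.0562). Because their promoters nearly coincide, the 160 bases before the RefSeq start of each are shown (GRCm38.p6, minus strand of chromosome 17, chr17:34972157-34972316 and chr17:34959239-34959398), 5′ to 3′, with a match to the heat shock element GAANNTTC in capitals. The windows agree at 159 of 160 bases, and the match begins at position -104 from the start in both.

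Hspa1a: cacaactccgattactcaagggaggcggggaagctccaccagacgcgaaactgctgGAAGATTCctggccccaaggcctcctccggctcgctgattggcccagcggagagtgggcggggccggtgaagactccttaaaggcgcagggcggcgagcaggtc
Hspa1b: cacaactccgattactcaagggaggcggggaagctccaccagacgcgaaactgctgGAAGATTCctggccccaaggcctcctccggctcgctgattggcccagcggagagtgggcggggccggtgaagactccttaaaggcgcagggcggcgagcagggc

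GAANNTTC, which reads the same on both strands, was found in 7.86% of 32851 RefSeq promoter windows of 300 bases. By gene it was found in 9.04% of 27025 genes and in 3 of the 14 dissociation stress genes with a window. A match is a description of letters and not a bound site. Of the 18 genes of the dissociation stress list, which holds immediate early genes such as Fos, Junb and Egr1 beside heat shock genes, 15 were lower in PCSp and 3 higher, with a median log2 fold change of -0.23 against -0.00 over all genes tested. Hspa1a was the only 1 that passed, and Junb (-0.35), Atf3 (-0.38), Hspa8 (-0.22) and Hspa1b reached an unadjusted p under 0.05. The median of the list was -0.07 in all other kept cells and 0.21 in the cells over the F13a1 limit. Whether the dissociation of the tissue plays a part in this was not tested.

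Mfge8 rose from 90.8 and 22.1 CPM in PSp to 561 and 547 CPM in PCSp, a log2 fold change of 3.30 ± 0.42 (adjusted p = 0.0408). MFG-E8 is secreted and bridges phosphatidylserine on dying cells to integrins on phagocytes. The rise lay in few cells: sub-cluster 6, 33 of the 976 members, held 94.7% of all Mfge8 UMIs. By mouse its share was 67.6%, 52.5%, 96.5% and 97.7%. Without sub-cluster 6 the levels were 32.0, 11.5, 22.5 and 15.3 CPM and the log2 fold change was -0.20 ± 0.40 (adjusted p = 0.965). The sub-clusters were made from the same genes, and Mfge8 is a leading gene of this one. Fits without a sub-cluster, here and for other genes, thus show where the UMIs lie and are no independent test. Within sub-cluster 6 itself Mfge8 stood at 768 and 133 CPM in PSp and at 4367 and 2872 CPM in PCSp. The PSp values rest on 4 cells per mouse, and 54.5% of the sub-cluster had high doublet scores. The number of these cells and their Mfge8 level were both higher in the PCSp mice. In these cells Npy, Hilpda and Trem2 were higher in both PCSp mice too. Gpnmb overlapped between the genotypes (2279, 5213, 8919 and 3579 CPM), and Spp1 was lower in PCSp (17966, 18501, 13248 and 9125 CPM). Keratin-high cells held Mfge8 at 317 to 388 CPM in all mice, near the mean of the macrophages, and the part of epithelial RNA in the macrophages' Mfge8 was not tested.

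Npy and Hilpda followed the same cells. Npy, a secreted neuropeptide, rose from 15 and 20.5 CPM to 56.2 and 56.1 CPM (log2 1.62 ± 0.21, adjusted p = 0.0408), and 97.6% of its UMIs were in sub-cluster 6. Too few were left without that sub-cluster for Npy to be tested. Hilpda, an inhibitor of lipolysis on lipid droplets, rose from 58.1 and 57.5 CPM to 118 and 128 CPM (log2 1.06 ± 0.14, adjusted p = 0.0408). Sub-cluster 6 held 63.8% of its UMIs, and without it Hilpda was at 0.53 ± 0.21 (adjusted p = 0.742). Without PSp mouse 1 neither gene passed (Npy 1.42, adjusted p = 0.0767, and Hilpda 1.07, adjusted p = 0.102).

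Gpnmb showed the same dependence without passing in any of these fits. It stood at 280 and 487 CPM in PSp and at 1120 and 693 CPM in PCSp (log2 1.21 ± 0.27, adjusted p = 0.263), and at 107, 36.4, 16.5 and 32.5 CPM without sub-cluster 6 (-1.61 ± 0.44, adjusted p = 0.313). Of the 18 lipid-associated macrophage genes, 12 were higher and 6 lower in PCSp with a median of 0.19, and none passed. Trem2 itself was at 0.50 ± 0.15 (adjusted p = 0.539), Fabp5 at 0.92 and Apoe at -0.41 ± 0.10 (adjusted p = 0.360). Apoe levels were 47054, 39370, 35546 and 30644 CPM, lower in both PCSp mice. With barcodes of high doublet score left out, 10 genes passed, 6 of them among the 9, and Npy, Hilpda and Hspa1a no longer did, at log2 fold changes of 2.86, 1.20 and -0.90 (adjusted p = 0.0995, 0.440 and 0.128). Mfge8 missed the threshold with DESeq2 (3.28, adjusted p = 0.0958).

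**Figure D4:**
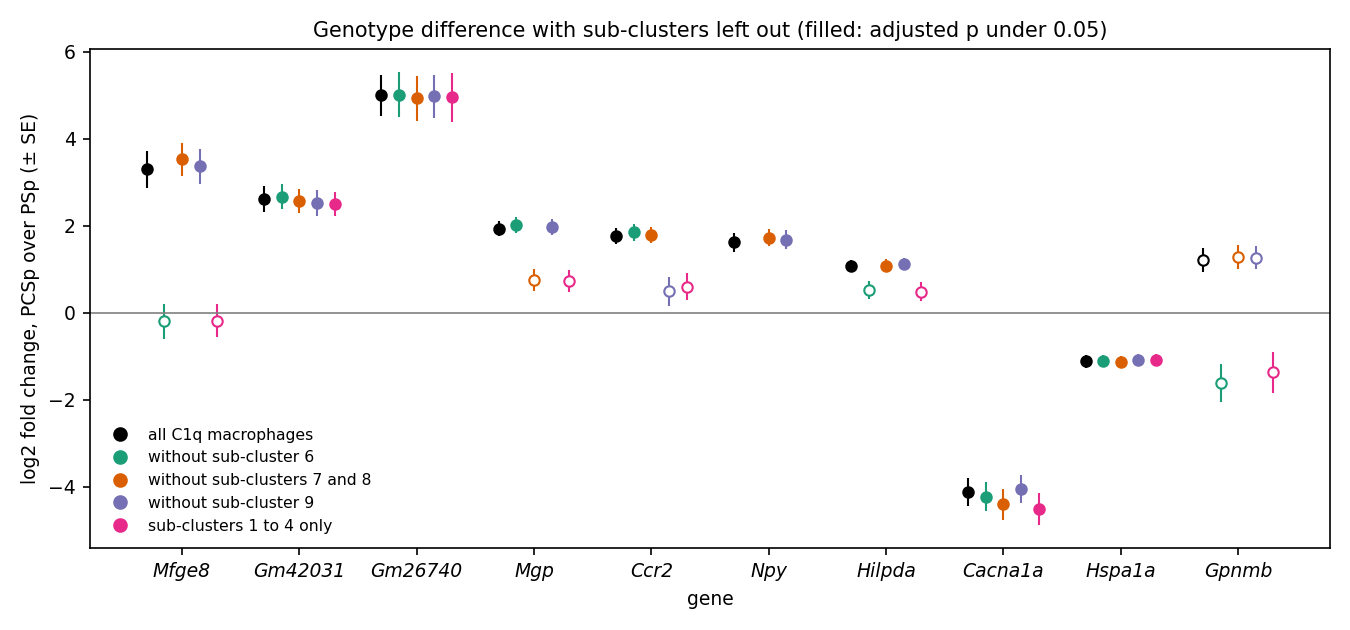
Log2 fold change, PCSp over PSp, with its standard error for the 9 called genes and Gpnmb, in all C1q macrophages and with sub-clusters left out, filled where the adjusted p is under 0.05. Gm42031, Gm26740, Cacna1a and Hspa1a stay at like values in every fit shown here, while Mfge8 and Hilpda lose the call without sub-cluster 6, Mgp without sub-clusters 7 and 8 and Ccr2 without sub-cluster 9. The sub-clusters were made from the same genes, so these fits show where the UMIs lie.

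Ccr2, the receptor that draws monocytes out of the blood, rose from 17.0 and 18.8 CPM to 64.5 and 60.5 CPM (log2 1.77 ± 0.19, adjusted p = 0.0164). Sub-cluster 9 held 56.4% of its UMIs beside 94.0% of those of the monocyte gene Ly6c2. The 2 genes did not go together in both PCSp mice. In sub-cluster 9, PCSp mouse 1 and PCSp mouse 2 held 86 and 85 UMIs of Ccr2 but 5 and 199 of Ly6c2. Without sub-cluster 9 Ccr2 was at 17.0, 13.9, 27.9 and 15.4 CPM, the groups overlapped, and the log2 fold change was 0.49 ± 0.32 (adjusted p = 0.876). The 12 monocyte markers summed to 340, 360, 383 and 656 CPM in all members and to 248, 345, 297 and 309 CPM in sub-clusters 1 to 4. Of the 21 chemokine and receptor genes tested, 13 were higher and 8 lower with a median of 0.12, and Ccr2 was the 1 that passed. Its ligands Ccl2, Ccl7 and Ccl12 were at -0.32, -0.12 and 0.12.

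Mgp, a calcification inhibitor made by stromal cells, rose from 56.2 and 51.5 CPM to 178 and 242 CPM (log2 1.94 ± 0.18, adjusted p = 0.00958). It moved with fibroblast markers. All 9 of the fibroblast markers tested were higher in PCSp, with a median of 1.94, and their sum over 10 markers was 490, 544, 861 and 1353 CPM. Sub-cluster 8 held 65.7% of the Mgp UMIs and 92.5% of those of Col1a1. Without sub-clusters 7 and 8 Mgp stood at 23.8, 45.1, 55.9 and 64.4 CPM with a log2 fold change of 0.75 ± 0.25 (adjusted p = 0.661). It also did not pass with a C1q limit of 20 UMIs (1.24, adjusted p = 0.679) or with the limit set after thinning (1.07, adjusted p = 0.601). In sub-clusters 1 to 4 the fibroblast markers summed to 239, 248, 267 and 407 CPM.

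Neutrophil markers were also uneven, with a sum of 173, 258, 248 and 747 CPM in all members, in which Ly6g and Camp were at 0, and of 105, 93.7, 122 and 120 CPM in sub-clusters 1 to 4. Markers of epithelium summed to 348, 385, 514 and 343 CPM, T and NK cell markers to 131, 116, 108 and 113 CPM, and smooth muscle markers to 423, 9.41, 64.5 and 18.4 CPM. In this last list PSp mouse 1 stood alone, and in sub-clusters 1 to 4 the range was 3.93 to 9.73 CPM. The part of cells of other classes in Ccr2, Mgp and Mfge8 beyond these values was not tested.

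Gm42031, a long intergenic RNA gene on chromosome 8 (bases 85125872 to 85132289), rose from 5.88 and 13.3 CPM to 65.4 and 58.3 CPM (log2 2.62 ± 0.29, adjusted p = 0.0206). Gm26740, an RNA gene on chromosome 10 annotated as antisense, rose from 0.653 and 0.553 CPM to 20.2 and 23.2 CPM, on 1 UMI in each PSp mouse and 46 and 43 in the PCSp mice. Its ratio of summed counts was 36.0, with a counting interval of 9.67 to 301, and it lies on the strand opposite to H60b and Raet1e, from whose reads it may not be fully separable. Both genes were higher in PCSp in the other cells too. Gm42031 was at 2.86 ± 0.41 in the cells over the F13a1 limit (adjusted p = 0.0149), at 2.77 ± 0.22 in keratin-high cells (0.168) and at 2.67 ± 0.21 in all other kept cells (0.240), and its effect in the macrophages differed from the last by -0.00 ± 0.37 (adjusted p = 1).

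**Figure D5:**
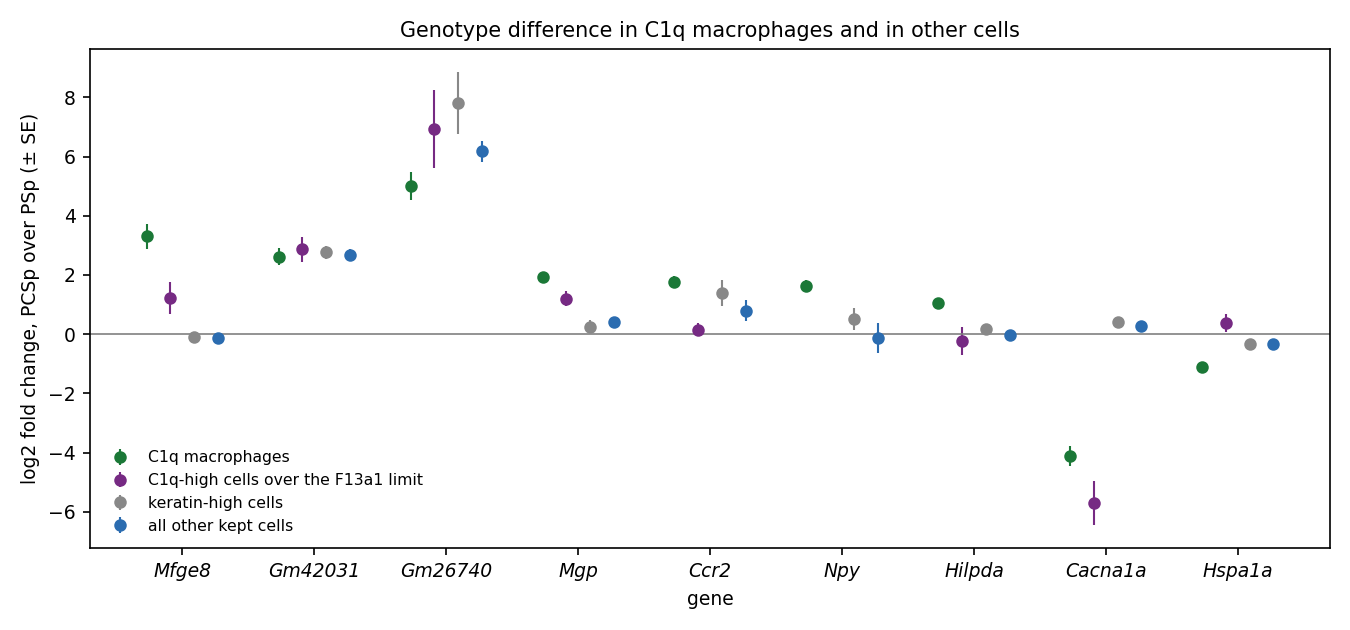
Log2 fold change, PCSp over PSp, with its standard error for the 9 called genes in C1q macrophages, in C1q-high cells over the F13a1 limit, in keratin-high cells and in all other kept cells, where a gene could be tested. Gm42031 and Gm26740 lie above 0 in every class, Cacna1a below 0 in both C1q-high classes alone, and Mfge8 near 0 in keratin-high and other cells (-0.11 in both).

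When only sub-clusters 1 to 4 were summed, 12 of 7975 genes tested passed, 4 higher and 8 lower in PCSp. This fit was added after the data were seen, and the sub-clusters were made from the same genes. Cacna1a, Gm42031, Gm26740 and Hspa1a were called as before. The other 8 genes were chosen after their values were seen. Il2ra, the interleukin-2 receptor alpha chain, stood at 44.1, 28.2, 6.85 and 9.32 CPM (log2 -2.21 ± 0.34, edgeR adjusted p = 0.0236). Apold1 stood at 18, 52.4, 0 and 3.88 CPM and the nuclease gene Dnase1l3 at 38.9, 29.5, 82.2 and 74.6 CPM, both at an adjusted p of 0.0297. The epithelial gene Reg3g, AY036118 and the haem-binding Hebp1 passed as well. Hebp1 was at -1.19 ± 0.18 in all members and at -1.01 ± 0.14 in all other kept cells.

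Among those 8 were Ifit1 and Ifnb1. Ifit1, an interferon-induced RNA-binding protein, stood at 119, 68.8, 26.3 and 32.6 CPM in sub-clusters 1 to 4 (log2 -1.72 ± 0.25, adjusted p = 0.0156), and at 131, 79.7, 42.6 and 43.7 CPM in all members (-1.31 ± 0.23, adjusted p = 0.130). Ifnb1, which encodes interferon beta, had 17 and 11 UMIs in the PSp mice and none in the PCSp mice, at least 9.91-fold lower against a floor of 3 counts over the group (adjusted p = 0.0297). All 28 of its UMIs were in 4 cells of sub-cluster 1, and in all members it did not pass (adjusted p = 0.123). Il12b, a subunit of interleukins 12 and 23, was at 26.8, 81.3, 5.26 and 13 CPM in all members, lower in both PCSp mice, and did not pass (log2 -2.66 ± 0.56, adjusted p = 0.237).

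Of 28 interferon response genes tested, 19 were lower and 9 higher in PCSp, with a median of -0.10 and none past the threshold, while the median of the same genes was -0.73 in all other kept cells and -0.68 in the C1q-high cells over the F13a1 limit. The list's difference between classes was not tested, and Ifit1 was about as low in other cells (-1.11) as in members (-1.31). Rsad2, an antiviral radical enzyme, was one of the genes for which the difference passed. In members it stood at 208, 282, 193 and 257 CPM, with overlapping groups, and in the cells over the F13a1 limit at 504 and 591 CPM in PSp against 136 and 145 CPM in PCSp. The difference of the genotype effects was 1.87 ± 0.23 (edgeR adjusted p = 0.00722). Bst2, an interferon-induced surface protein, stood at 942, 941, 1285 and 1101 CPM in members and at 365, 417, 266 and 232 CPM in all other kept cells, and its genotype effects differed too, by 1.02.

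The promoters of Ifit1 and Rsad2 are shown because they carry the letters of the interferon-stimulated response element, searched on both strands as a pair of GAAA separated by 2 bases of any kind. The matches are in capitals and lie on the opposite strand in both. Each line gives the 160 bases before the RefSeq start, 5′ to 3′ (GRCm38.p6, Ifit1 on the plus strand at chr19:34640729-34640888, Rsad2 on the minus strand at chr12:26456453-26456612).

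Ifit1: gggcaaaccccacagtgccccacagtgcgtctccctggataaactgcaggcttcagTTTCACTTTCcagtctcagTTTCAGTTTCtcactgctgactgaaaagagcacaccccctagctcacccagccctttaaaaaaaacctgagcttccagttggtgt
Rsad2: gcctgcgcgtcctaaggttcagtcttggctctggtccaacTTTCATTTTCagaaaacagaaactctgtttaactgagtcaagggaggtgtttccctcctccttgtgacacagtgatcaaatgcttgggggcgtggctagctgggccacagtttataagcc

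Ifit1 holds 2 matches and Rsad2 holds 1. On either strand the motif was found in 3.44% of the RefSeq promoter windows, in 3.99% of genes, and in 14 of the 21 interferon response genes with a window. The 2 genes thus share the motif. Ifit1 was lower in PCSp in members, where it did not pass, and in all other kept cells (-1.31 and -1.11). Rsad2 overlapped between the genotypes in members but was lower in PCSp in the C1q-high cells over the F13a1 limit.

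The members and the C1q-high cells over the F13a1 limit could be set against each other for 8455 genes, of which 5 (0.0591%) had genotype effects that differed. Rsad2, described above, was one of them. Cmpk2, a mitochondrial kinase induced by interferon, stood at 14.4, 26.6, 26.3 and 31.3 CPM in members and at 109, 88.7, 17.2 and 15.4 CPM in the others, a difference of 3.19 ± 0.45. S100a4, a calcium-binding protein, and Saa3, an acute-phase protein, were others.

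Among lists of macrophage function, most microglia-like genes were lower. Of 10 tested, 9 were lower in PCSp with a median of -0.29, Sparc being the exception, and none passed. Tmem119 was at -0.31 and Olfml3 at -0.33, each at an unadjusted p under 0.05. The list's median was 0.23 in all other kept cells and -0.42 in the C1q-high cells over the F13a1 limit, so the lower level was not particular to the members. Of 14 complement genes, 11 were higher with a median of 0.15 and none passed. Their smallest p-values belonged to properdin (Cfp, 0.78 ± 0.23, adjusted p = 0.516) and the C1 inhibitor Serping1 (1.24 ± 0.32, adjusted p = 0.400).

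MHC class II genes had a median of -0.27 in the C1q-high cells over the F13a1 limit, so the lack of a rise was not particular to the members. Their median was -0.06 (7 of 9 lower) in the macrophages against 0.55 in all other kept cells. H2-Ab1 illustrates this with 5770, 4380, 4865 and 4631 CPM in members, where the groups overlap, against 166, 108, 195 and 230 CPM in the other cells, and the difference of the effects was -0.71 ± 0.14. The immune checkpoint ligand Cd274 stood at 29.4, 28.8, 48.7 and 48.6 CPM (0.71 ± 0.18, adjusted p = 0.360). NF-kB genes had a median of 0.05, with the inhibitor Nfkbia at 412, 490, 571 and 671 CPM (0.43 ± 0.13, adjusted p = 0.516).

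Cholesterol metabolism is the subject of the study's title, and in the macrophages it showed no call. Of the 10 cholesterol biosynthesis genes tested, 8 were higher and 2 lower in PCSp, with a median of 0.22 against -0.01 in all other kept cells and 0.11 in keratin-high cells. Pmvk, a kinase of the mevalonate pathway, stood at 21.6, 17.7, 23.7 and 39.4 CPM, higher in both PCSp mice (0.65 ± 0.29, adjusted p = 0.760). Of 12 genes of SREBP control and cholesterol uptake, 9 were higher and none passed. Mylip, the ubiquitin ligase that degrades the LDL receptor, stood at 178 and 194 CPM in PSp and at 134 and 130 CPM in PCSp (-0.52 ± 0.12, adjusted p = 0.295). Genes of cholesterol efflux and storage had a median of 0.05.

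Mitochondrially encoded transcripts were lower in the PCSp macrophages in 12 of 13 genes, with a median of -0.36, 9 of them at an unadjusted p under 0.05, against 2.95% of all genes tested, and none past the threshold. mt-Nd2 stood at 1661, 1805, 1239 and 1142 CPM (-0.57 ± 0.09, adjusted p = 0.100). The same list had a median of -0.41 in all other kept cells and -0.36 in keratin-high cells, and the difference between classes was not tested for the list. Nuclear genes of oxidative phosphorylation had a median of 0.00 in the macrophages. Median mitochondrial UMIs per member were 3.55%, 4.33%, 3.0% and 2.89%.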

How the data were processed

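Single-cell RNA libraries (10x 3' V3) of whole digested tumours were deposited as UMI counts, made by the authors in Cell Ranger 6.1.2 against mm10, per the submitters' processing notes. The members, gene lists and comparisons were chosen with earlier results of these data known. Counts of members were summed per mouse and tested with edgeR 4.0.16 (quasi-likelihood, TMM, filterByExpr, Benjamini-Hochberg adjustment over all genes), and differences between classes as interaction terms. The mice are replicates by label, and p-values measure the spread between these 4. On simulated counts for 8712 genes, 51 of 67 genes changed by a log2 of 1 were found, with 9 false among 193 calls. The changed genes were drawn from well-counted genes only, and every gene was given the same spread. These figures therefore do not cover genes with few UMIs or with UMIs from few cells. Members were clustered with scanpy 1.11.5 (2000 variable genes, 20 components, 15 neighbours). No doublets were removed in the main sums: Scrublet's own threshold marked 0 members and had not worked, so the highest scores, 0.8% per 1000 barcodes, served as an alternative. Ratios used a pseudocount of 10 CPM. Genes named were the engineered genes, the markers, passing genes averaging 20 CPM or more (filled to 5 per direction), the 2 of smallest p per list, and the leading genes of descriptions and sub-clusters; Gm26740 and further genes were named after their values were seen. A few genes and 1 allele shared by both groups are not reported here. Intervals cover counting error only. Other settings tried were DESeq2 1.42.0, scaling, filters, C1q limits, thinning, cells left out and mice left out.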

Additional observations from a re-analysis of the deposited data

Results flagged for a closer look

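The effect of genotype, PCSp over PSp on the log2 scale, differed by edgeR's interaction test between the C1q macrophages and another class of cells for the following genes. Against the C1q-high cells over the F13a1 limit the differences were 1.87 for Rsad2, 6.86 for Saa3, 3.19 for Cmpk2 and 2.01 for S100a4. Saa3 rests on low levels, 0, 4.43, 9.65 and 42.1 CPM in the macrophages, and could not be tested in the other class by itself. S100a4 stood at 15.7, 17.1, 48.3 and 91.8 CPM in the macrophages and at 331, 314, 317 and 352 CPM in the other class, and its macrophage UMIs were mostly in sub-cluster 6 (45.4%, 121 of these 152 UMIs from PCSp mouse 2) and in sub-cluster 9 (37.3%).

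Against all other kept cells the differences were 3.58 for Mfge8, -4.41 for Cacna1a, 1.54 for Mgp, 1.13 for Hilpda, 1.9 for Npy, -0.78 for Hspa1a and 0.87 for Chd1. Against keratin-high cells they were 3.51 for Mfge8, -4.54 for Cacna1a, 1.67 for Mgp, 1.06 for Chd1 and -0.77 for Hspa1a. Chd1 was at 41.2, 43.2, 54.0 and 65.3 CPM in the macrophages and at 91.1, 77.3, 60 and 55.0 CPM in keratin-high cells, so the groups were separated in opposite directions.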

How the results depend on the processing

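The 9 calls became 26 with DESeq2 (8 of the 9 kept), 13 without TMM factors, 238 with no filter on low counts, 3 with a C1q limit of 5 UMIs (2 kept), 11 with a limit of 20, 18 with the limit set after thinning (6 kept), 15 with thinned sums, 14 without sub-cluster 6 (6 kept) and 15 without sub-clusters 7 and 8. Without cells holding RNA of other classes, 36, 48, 33 and 76 cells were left, 1296 genes could be tested and 0 passed in edgeR, with 159 at an unadjusted p under 0.05. Leaving out 1 mouse gave 15 to 239 calls, 15 without PSp mouse 1, 38 without PSp mouse 2, 239 without PCSp mouse 1 and 97 without PCSp mouse 2, where the lone mouse of a group is assumed to vary like the others. Fits by sub-cluster were added after seeing the data.

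Differences against the cells over the F13a1 limit, 5 in the main fit, numbered 58 with no filter, 14 in sub-clusters 1 to 4 and 1 to 9 with a mouse left out. Against keratin-high cells, 48 became 151 with no filter and 52 to 143 with a mouse left out. Against all other kept cells, 111 became 182, 68 in sub-clusters 1 to 4 and 65 to 197.

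The difference in share, 0.365 points, ran from 0.244 to 0.486 with a mouse left out and turned to -0.248 among cells without keratin and to -0.866 without cells holding RNA of other classes. The share of C1q-high cells differed by -8.49 to -2.86 points with a mouse left out. Directions turned, with the cause not tested, for Trem2 (-0.092), Cx3cr1 (0.31), Gpnmb (-4.04), Mylip (1.43) and Ndufa4 (-0.10) without cells holding RNA of other classes, for Mfge8 (-0.20) and Gpnmb (-1.61) without sub-cluster 6 and in sub-clusters 1 to 4 (-0.18 and -1.37), for Serping1 (-0.026) and Sparc (-0.39) at a C1q limit of 20, for Scarb1 (-0.83) at a limit of 5, and for Mcm3, which ran from -0.013 to 0.39 with a mouse left out. No paired analysis was possible because the replicate numbers follow accession order and pair no mice.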
